A study of Homo sapiens with 12 samples.

Results

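The genes described here carry the signal of insulin and insulin-like growth factors from the cell surface to the FOXO transcription factors: the ligand IGF1, the receptors IGF1R and INSR, the adaptors IRS1 and IRS2, the phosphoinositide 3-kinase (PI3K) regulators PIK3R1 and PIK3IP1, and the transcription factors FOXO1 and FOXO3. They were chosen by gene symbol, as all probe sets that the array's annotation assigns to 1 of these 9 genes and to no other gene. That gave 33 of the 54675 probe sets on the array, for 9 of its 19775 named genes. A probe set is a group of short oligonucleotides that read 1 transcript region, and its value is a log2 intensity, so that a difference of 1 is 2-fold. Of the 33, 29 lay above the 40th percentile of their array in at least 3 of the 12 arrays and were tested. The 4 that did not were 1 probe set each of IGF1 (241072_s_at), IGF1R (243358_at), FOXO1 (228484_s_at) and PIK3IP1 (1555632_at), which lay above that level, 4.86 to 4.95, in 0 arrays.

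RNA was measured in the established human line H929, which derives from multiple myeloma, a tumour of plasma cells. There were 4 groups of 3 arrays. In the infected arm, the virus delivered a hairpin RNA aimed at BCL9 (shBCL9) or, as control, at the jellyfish protein GFP (shGFP), and in both groups GFP-positive cells were collected by flow cytometry. In the transfected arm, unsorted as far as the labels say, cells received cel-miR-67, a worm microRNA used as control, or human miR-30 (hsa-miR-30a/b/c/d/e). The labels do not say whether these miR-30 members were given together or how many hairpins against BCL9 were used. Nor do they say whether replicate arrays stem from independent cultures. The p-values thus gauge no more than the spread among these arrays, and that spread may be technical. All 10 plasma cell markers examined, among them SDC1 (10.11 to 11.79) and TNFRSF17, lay above the filter level in all 12 arrays, while MS4A1, CD2, CD14, LYZ, MPO, COL3A1, LUM, EPCAM and KRT19, markers of other cells, lay below it in all 12. Other markers of such cells, among them PAX5, CD3D, CSF1R and HBB, lay above it in all 12. BCL9, the target of the hairpin, has 1 probe set with 1 gene, which read 7.88 ± 0.01 (SD, n = 3) in shGFP, 7.73 ± 0.12 in shBCL9, 7.82 ± 0.04 in cel-miR-67 and 7.96 ± 0.11 in miR-30. The difference was -0.15 in shBCL9 (adjusted p = 0.107) and 0.14 in miR-30 (adjusted p = 0.338), so a fall of BCL9 RNA was not called in either, and shBCL9 and miR-30 below mean the arrays labelled so.

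Binding of IGF1 or insulin to IGF1R or INSR leads to phosphorylation of IRS1 and IRS2, which recruit PI3K through its regulatory subunits. PI3K makes the membrane lipid PIP3 and thereby activates the kinase AKT. AKT phosphorylates the FOXO proteins and keeps them out of the nucleus, and FOXO proteins in turn activate genes of cell cycle arrest, death, autophagy and feedback on this pathway, IRS2 and the receptors included. In myeloma, IGF1 is known as a growth and survival factor for the malignant plasma cells.

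The microRNA delivered in the transfected arm is shown because its seed (bases 2 to 8, in capitals) sets which transcripts it can pair with. The mature sequences of 3 family members, from RefSeq with the miRNA genes placed on GRCh38.p14, share 1 seed.
hsa-miR-30a-5p: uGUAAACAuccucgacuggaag
hsa-miR-30c-5p: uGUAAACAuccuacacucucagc
hsa-miR-30e-5p: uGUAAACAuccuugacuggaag

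The promoters of IGF1 and IRS2 are shown because both genes gave their highest readings in the shGFP cells and because they alone among the 9 genes held one of the motifs searched. The windows are the 250 bases before a transcription start site in RefSeq (GRCh38.p14), of which the table held 17 for the 9 genes. Each was searched on both strands for GTAAACA, a core to which forkhead proteins such as FOXO bind, and for CAAAACA, the core of the insulin response element. The motifs share their last letters, AAACA, and cannot start at the same base. GTAAACA was in 1 of the 17 windows, upstream of IGF1 with its first base at -247, and in 2.98% of all 35116 windows of that length. CAAAACA was in 1 of the 17, upstream of IRS2 at -40 and on the opposite strand (read as TGTTTTG), and in 4.3% of all windows. A match is a run of letters and does not show a bound site. In the windows below, both read along the gene's own strand, the match is in capitals.
IGF1, chr12:102481748-102481997, minus strand: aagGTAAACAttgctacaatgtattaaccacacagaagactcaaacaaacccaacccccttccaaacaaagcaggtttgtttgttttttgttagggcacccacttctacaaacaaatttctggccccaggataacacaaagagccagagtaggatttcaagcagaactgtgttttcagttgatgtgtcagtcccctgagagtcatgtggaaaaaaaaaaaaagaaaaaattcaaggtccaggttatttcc
IRS2, chr13:109786584-109786833, minus strand: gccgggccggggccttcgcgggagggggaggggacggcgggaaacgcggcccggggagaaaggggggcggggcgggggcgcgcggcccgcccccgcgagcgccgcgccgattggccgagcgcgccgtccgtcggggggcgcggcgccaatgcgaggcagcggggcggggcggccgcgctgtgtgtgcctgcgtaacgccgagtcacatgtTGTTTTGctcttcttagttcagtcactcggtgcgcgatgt

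The shBCL9 cells read lower for IGF1, IGF1R, IRS2 and PIK3R1 at most of their probe sets, and no member passed the test with miR-30. Against shGFP, limma called 19 of the 29 tested probe sets in shBCL9 (adjusted p under 0.05 over all 34402 probe sets tested), 17 of them lower and 2 higher. Over all probe sets tested, 37.3% were called (21% lower, 16.3% higher). The median difference of the 29 was -0.28, against 0.02 over all probe sets. The median size of the difference was 0.30, against 0.17. The 3 arrays of each group did not overlap at 21 of the 29, against 49.2% of all. All tested probe sets were called lower for 3 genes, IGF1, IRS2 and PIK3R1. The difference was at least 2-fold at 4 probe sets, of IGF1, IRS2 and PIK3R1, against 1.66% of all. With miR-30, 0 of the 29 were called against cel-miR-67 in limma (3 at an unadjusted p under 0.05), where 2.67% of all probe sets were, and 0 were called with a 2-fold difference or more, against 0.00581% of all.

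**Figure D1:**
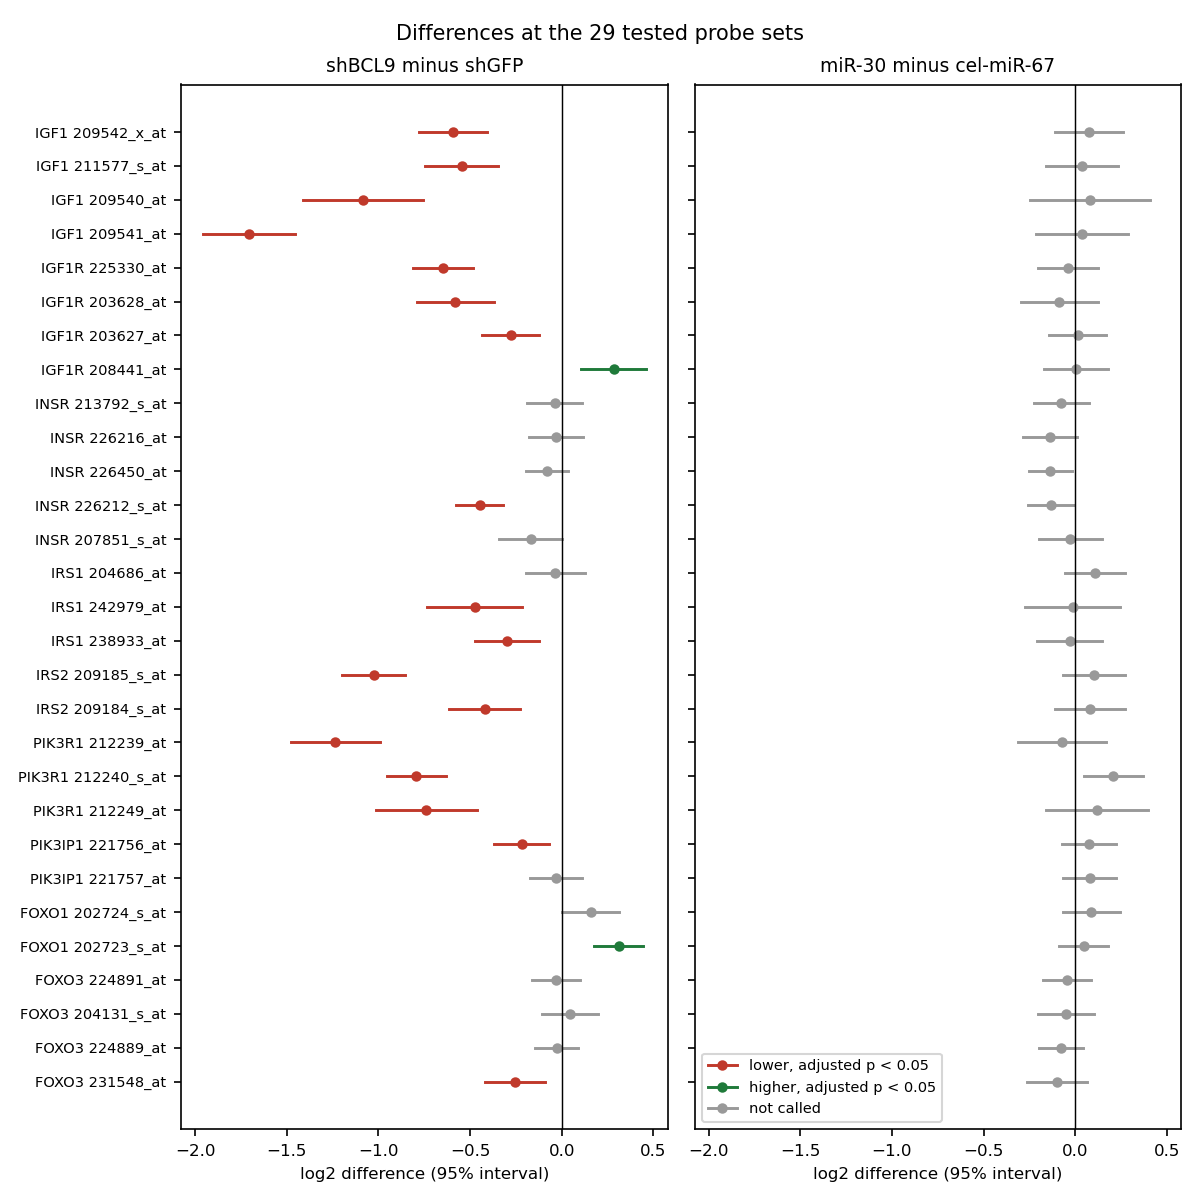
Log2 differences (x axis) with 95% intervals at the 29 tested probe sets (y axis, by gene) for shBCL9 minus shGFP on the left and miR-30 minus cel-miR-67 on the right, with 3 arrays per group. On the left 17 probe sets are called lower (red) and 2 higher (green), down to -1.71 for IGF1. On the right every interval lies between -0.31 and 0.41 and none is called (grey).

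These differences were accompanied by differences between the array controls. For ACTB, the signal of the 3' control probes minus that of the 5' ones, which grows when labelled RNA is shorter, was 1.67 ± 0.08 (SD, n = 3) in shBCL9 and 1.30 ± 0.11 in shGFP. The 18S rRNA signal was 13.23 ± 0.02 in shBCL9 and 12.38 ± 0.07 in shGFP, the poly-A spike-in signal was 6.35 ± 0.45 and 7.01 ± 0.15, and the hybridisation spike-in signal was 10.97 ± 0.06 and 11.22 ± 0.10. Each of these pairs of groups did not overlap (exact permutation test, two-sided, p = 0.1, the smallest that 3 against 3 arrays allow). The same 3' minus 5' measure for GAPDH was 0.131 ± 0.02 in shBCL9 and 0.136 ± 0.02 in shGFP (exact p = 0.5). In the transfected arm the ACTB difference was 2.07 with miR-30 and 2.16 with cel-miR-67 (exact p = 0.4), and the 18S signal was 12.64 and 12.50 (exact p = 0.1). With the ACTB difference as a covariate, 10 member probe sets were called in the hairpin comparison, all lower, and 5690 of all 34402. With the poly-A signal 13 were called and 5472 of all. With the 18S signal 0 were called by limma, 3 at an unadjusted p under 0.05, and 3 of all 34402. The median standard error at the 29 probe sets was 0.08 without a covariate and 0.57 with the 18S signal. Of the plasma cell markers 3 of 10 were higher in shBCL9 and 2 lower, against 17.1% and 21.8% of all genes. SDC1 (0.88) and CD38 (0.71) read higher and were named after their values were seen, while 2 of the 10, not named here, were lower. The log2 of the 10 markers' summed level was 15.97 to 16.07 in shGFP and 15.97 to 16.04 in shBCL9. That sum is of unlogged intensities, so the brightest markers weigh most in it. Of the tested B cell markers 2 of 3 were higher, against 17.1% of all genes, and of the tested T and NK, myeloid, erythroid, and stromal and epithelial markers 0. Their part in the members' differences was not tested.

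IGF1, the secreted ligand, fell at all 4 tested probe sets in shBCL9. At 209541_at, which changed most, the shGFP arrays read 6.04, 6.16 and 6.24 and the shBCL9 arrays 4.62, 4.33 and 4.37. The cel-miR-67 arrays read 4.68, 5.14 and 4.83, and the miR-30 arrays 4.77, 4.98 and 5.02. Only the shGFP arrays were high, and they overlapped with no other group. The difference between shBCL9 and shGFP was -1.71 ± 0.12 (SE; 3.26-fold; adjusted p = 2.51e-07), but the shBCL9 mean of 4.44 lay under the filter level, which the probe set passed in 6 of 12 arrays, so its size is uncertain. At the brightest IGF1 probe set, 209542_x_at, the shGFP arrays read 7.04, 7.15 and 6.78 and the shBCL9 arrays 6.47, 6.39 and 6.32. The groups again did not overlap, and the difference was -0.59 ± 0.08 (adjusted p = 0.000151). The other 2 probe sets gave -1.08 (209540_at) and -0.54 (211577_s_at). The suffixes _x and _s mark probe sets that may also read other or related transcripts. With the ACTB covariate 209540_at and 209541_at stayed called and the other 2 did not, with 209542_x_at at -0.52 (adjusted p = 0.0932).

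Between cel-miR-67 and miR-30, IGF1 differed by 0.04 to 0.08 at its 4 probe sets, and the arrays overlapped at each. At 209542_x_at the 95% interval ran from -0.11 to 0.26. The effect of miR-30 minus that of the hairpin (the difference of effects, made from the same arrays) was tested next. For IGF1 it was 0.58 to 1.74, and limma called it at all 4 probe sets. It stayed called at 209541_at with the ACTB covariate and was lost at the other 3 (0.59, 0.48 and 1.38, adjusted p 0.075 to 0.285), and with the 18S covariate it was -0.07 at 209542_x_at and -0.11 at 211577_s_at. Among the 29 probe sets, 14 had a called difference of effects, 13 of them higher in the miR-30 arm and 1 lower, against 21.6% of all probe sets (13% higher, 8.61% lower). It was called with at least 2-fold at 5, against 1.72% of all.

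IGF1R, the receptor tyrosine kinase for IGF1, fell at 3 of 4 tested probe sets. At the brightest, 225330_at, the shGFP arrays read 8.40, 8.52 and 8.54, the shBCL9 arrays 7.87, 7.86 and 7.80, the cel-miR-67 arrays 8.41, 8.52 and 8.21, and the miR-30 arrays 8.34, 8.39 and 8.29. The shBCL9 arrays lay below the arrays of every other group, and the other 3 groups overlapped. The difference from shGFP was -0.65 ± 0.08 (SE; 1.57-fold; adjusted p = 2.75e-05) and stayed called with the ACTB covariate (adjusted p = 0.000761). Probe set 203628_at, with the same order of groups, gave -0.58 (adjusted p = 0.000486), and 203627_at gave -0.28 (adjusted p = 0.00856). With the ACTB covariate 203628_at stayed called and 203627_at was lost (-0.38, adjusted p = 0.14), as it was with the poly-A covariate (-0.27, adjusted p = 0.132).

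The remaining IGF1R probe set, 208441_at, was called higher in shBCL9, by 0.28 (adjusted p = 0.0157). It lay above the filter level in only 5 of the 12 arrays, with group means of 4.76 to 5.11. The call was lost without shGFP replicate 1 (0.23, adjusted p = 0.0579) or shBCL9 replicate 1 (0.26, adjusted p = 0.0555), and the difference was -0.00071 with the ACTB covariate. The IGF1R probe sets therefore did not all read 1 direction.

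Between cel-miR-67 and miR-30, IGF1R differed by -0.09 to 0.01. The difference of effects was called at 225330_at (0.61, adjusted p = 0.00142) and at 203628_at (0.49, adjusted p = 0.0215). At 203628_at it was lost without cel-miR-67 replicate 2 (0.45, adjusted p = 0.052), cel-miR-67 replicate 3 (0.41, adjusted p = 0.0506) or miR-30 replicate 2 (0.45, adjusted p = 0.0563), and with the ACTB (0.82, adjusted p = 0.0765) or poly-A (0.51, adjusted p = 0.0699) covariate. At 203627_at it was 0.29 and not called (adjusted p = 0.0563), and it was called without shBCL9 replicate 1 (0.34, adjusted p = 0.0484) or miR-30 replicate 3 (0.35, adjusted p = 0.0259), or with a 60th percentile filter (adjusted p = 0.0349). At 208441_at it was -0.28 and was called only without cel-miR-67 replicate 3 (-0.35, adjusted p = 0.0427).

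INSR, the insulin receptor, which can also pair with IGF1R in a hybrid receptor, differed little within either arm and much between the arms. At its brightest probe set, 213792_s_at, the shGFP arrays read 10.08, 10.16 and 10.14 and the shBCL9 arrays 10.15, 10.06 and 10.07. The cel-miR-67 arrays read 11.50, 11.39 and 11.31 and the miR-30 arrays 11.45, 11.30 and 11.22. All 6 transfected arrays lay above all 6 infected arrays, and within each arm the groups overlapped. The same split of the arms held at all 5 INSR probe sets. The hairpin difference at 213792_s_at was -0.04 (95% interval -0.19 to 0.11; adjusted p = 0.699).

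Only 226212_s_at of the 5 INSR probe sets was called in shBCL9, at -0.45 ± 0.06 (SE; adjusted p = 6.97e-05), and it stayed called with the ACTB covariate. The other 4 gave -0.17 to -0.03. The shBCL9 and shGFP arrays did not overlap at 226212_s_at, 226450_at and 207851_s_at, against 49.2% of all probe sets. In the transfected arm all 5 INSR probe sets read lower with miR-30, by 0.03 to 0.13 in size. The groups did not overlap at 3 of them, against 22.9% of all probe sets. At 226450_at the difference was -0.13 (95% interval -0.25 to -0.02; unadjusted p = 0.0267, adjusted p = 0.217 in limma), so none passed the threshold. The effects of miR-30 and the hairpin differed at 226212_s_at alone of the 5 (0.32, adjusted p = 0.0155), a call that was lost with the ACTB and the poly-A covariates.

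IRS1, the adaptor that links IGF1R to PI3K in many tissues, gave unlike readings from its 3 probe sets. At the brightest, 204686_at, the shGFP arrays read 8.89, 8.95 and 9.03 and the shBCL9 arrays 8.97, 8.89 and 8.91, which overlapped (difference -0.03, 95% interval -0.20 to 0.13). At the other 2 the shBCL9 arrays all lay below the shGFP arrays, with differences of -0.47 ± 0.12 (242979_at, adjusted p = 0.00801) and -0.30 ± 0.08 (238933_at, adjusted p = 0.0122). Of these, 242979_at stayed called with the ACTB covariate and was lost with the poly-A covariate (-0.53, adjusted p = 0.0891), while 238933_at was lost with the ACTB covariate (-0.30, adjusted p = 0.308) and stayed called with the poly-A covariate. In the transfected arm the 3 probe sets differed by -0.03 to 0.11, with overlap at each. At 242979_at the difference of effects was 0.46 and not called (adjusted p = 0.0718), but it was called without shGFP replicate 1 (0.58, adjusted p = 0.0217) or cel-miR-67 replicate 1 (0.55, adjusted p = 0.0439). It was also called with the ACTB covariate (1.05, adjusted p = 0.0486), array weights (0.49, adjusted p = 0.0277) or a trend and robust spread (adjusted p = 0.0302).

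IRS2, the second adaptor and a known FOXO-regulated gene, fell at both probe sets in shBCL9. At 209185_s_at the shGFP arrays read 7.75, 7.77 and 7.88, the shBCL9 arrays 6.76, 6.85 and 6.72, the cel-miR-67 arrays 7.33, 7.25 and 7.37, and the miR-30 arrays 7.55, 7.48 and 7.23. The shGFP arrays were highest, the shBCL9 arrays lowest, and the transfected groups lay between and overlapped each other. The difference between shBCL9 and shGFP was -1.03 ± 0.08 (SE; 2.04-fold; adjusted p = 7.93e-07) and was -1.11 with the ACTB covariate (adjusted p = 0.00239). At 209184_s_at it was -0.42 (adjusted p = 0.0026), and the call was lost with the ACTB covariate (-0.27, adjusted p = 0.393). With miR-30 the 2 probe sets differed by 0.10 and 0.08, neither called, and the effects of the arms differed at both, by 1.13 (adjusted p = 1.87e-05) and 0.50 (adjusted p = 0.0128). The first stayed called with the ACTB covariate, and the second was lost (0.32, adjusted p = 0.464).

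**Figure D2:**
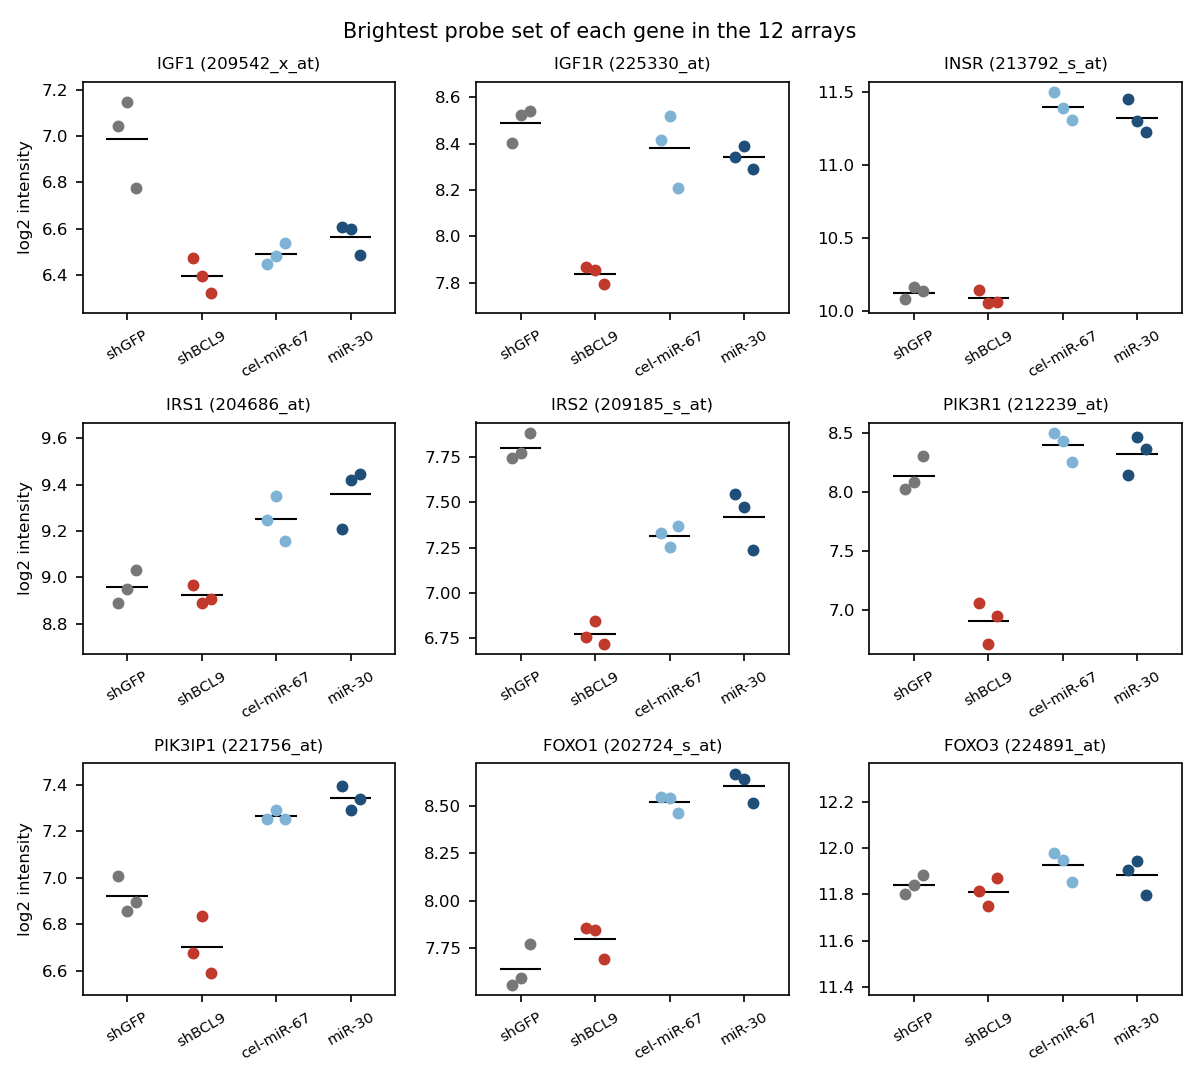
Log2 intensity (y axis) of the brightest probe set of each of the 9 genes in the 12 arrays, by group (x axis), with a point per array and a line at the mean of 3 arrays. The panels' axes differ and do not start at 0, and levels cannot be compared between panels. IGF1 and IRS2 are highest in shGFP, IGF1R and PIK3R1 are lowest in shBCL9, and INSR and FOXO1 are higher in both transfected groups.

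PIK3R1 encodes p85-alpha, the regulatory subunit that docks PI3K on phosphorylated receptors and adaptors, and fell at all 3 probe sets in shBCL9. At the brightest, 212239_at, the shGFP arrays read 8.03, 8.08 and 8.31, the shBCL9 arrays 7.06, 6.71 and 6.95, the cel-miR-67 arrays 8.50, 8.44 and 8.26, and the miR-30 arrays 8.15, 8.47 and 8.36. The shBCL9 arrays lay below every other array, and the other 3 groups overlapped. The difference from shGFP was -1.23 ± 0.11 (SE; 2.35-fold; adjusted p = 3.16e-06), and with the ACTB covariate it was -1.46 (adjusted p = 0.00325). The others gave -0.79 (212240_s_at) and -0.74 (212249_at), the last with an shBCL9 mean of 4.27 under the filter level. All 3 probe sets stayed called with the ACTB covariate, and 212249_at was lost with the poly-A covariate (-0.41, adjusted p = 0.116).

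With miR-30, PIK3R1 differed by -0.07 to 0.21. The largest difference of any member in that arm was at PIK3R1 212240_s_at, where the cel-miR-67 arrays read 7.70, 7.59 and 7.54 and the miR-30 arrays 7.94, 7.83 and 7.69. These overlapped, and the difference of 0.21 (95% interval 0.05 to 0.37; unadjusted p = 0.0156) was not called (adjusted p = 0.168). The effects of the arms differed at all 3 PIK3R1 probe sets, by 0.86 to 1.16, and with the ACTB covariate at 2, with 212249_at lost (1.20, adjusted p = 0.0616). The 3 genes outside the pathway members whose brightest probe sets followed PIK3R1 most closely over the 12 arrays were FAM8A1 (Pearson r = 0.984), ASAH1 (0.983) and WBP4 (0.980), given as a description of arrays that share 4 groups.

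PIK3IP1, a membrane protein that inhibits PI3K, moved less. At 221756_at the shGFP arrays read 7.01, 6.86 and 6.90, the shBCL9 arrays 6.68, 6.84 and 6.59, the cel-miR-67 arrays 7.25, 7.29 and 7.25, and the miR-30 arrays 7.39, 7.29 and 7.34. The 4 groups did not overlap, in the order shBCL9, shGFP, cel-miR-67, miR-30 from low to high, but the highest shBCL9 array (6.84) lay next to the lowest shGFP array (6.86), and the highest cel-miR-67 array and the lowest miR-30 array both read 7.29. The hairpin difference was -0.22 ± 0.07 (SE; adjusted p = 0.0236). It was not called without shGFP replicate 1 (-0.18, adjusted p = 0.0834), shBCL9 replicate 1 (-0.21, adjusted p = 0.0699) or shBCL9 replicate 3 (-0.16, adjusted p = 0.0966). Nor was it called with the ACTB (-0.25, adjusted p = 0.311) or poly-A (-0.10, adjusted p = 0.529) covariate. Further quantile normalization (-0.17, adjusted p = 0.0626) and a fit of only the arrays of the comparison (adjusted p = 0.0665) also lost the call. The other probe set, 221757_at, differed by -0.03 (adjusted p = 0.732). With miR-30 both probe sets read higher, by 0.08 at each, and did not pass the threshold. The difference of effects at 221756_at was 0.29 (adjusted p = 0.0456) and was lost when any array but shBCL9 replicate 2 was left out (0.24 to 0.33, adjusted p 0.0507 to 0.0993).

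FOXO1, which is restrained by AKT and activates genes of arrest and feedback, was not lower in shBCL9. At 202724_s_at the shGFP arrays read 7.56, 7.60 and 7.77 and the shBCL9 arrays 7.86, 7.85 and 7.70, which overlapped, with a difference of 0.16 (adjusted p = 0.105). It was called without shGFP replicate 3 (0.22, adjusted p = 0.0363), with further quantile normalization (0.24, adjusted p = 0.0118) and with array weights (0.20, adjusted p = 0.0207). At 202723_s_at the shGFP arrays read 6.68, 6.80 and 6.70 and the shBCL9 arrays 7.08, 7.06 and 6.98. These did not overlap, and the rise of 0.31 ± 0.06 (SE) was called (adjusted p = 0.00165), though not with the ACTB covariate. With miR-30 the probe sets differed by 0.09 and 0.05, with overlapping arrays. The difference of effects was called at 202723_s_at (-0.27, adjusted p = 0.0462) and lost without any 1 of 9 arrays: shGFP replicate 1 or 3, shBCL9 replicate 1 or 2, any cel-miR-67 array, or miR-30 replicate 2 or 3 (-0.29 to -0.24, adjusted p 0.0506 to 0.101).

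FOXO3, the FOXO family member with the same mode of control, differed little at most of its probe sets. At 224891_at the shGFP arrays read 11.80, 11.84 and 11.88, the shBCL9 arrays 11.81, 11.75 and 11.87, the cel-miR-67 arrays 11.98, 11.95 and 11.85, and the miR-30 arrays 11.90, 11.94 and 11.80. All 4 groups overlapped. The hairpin difference was -0.03 (95% interval -0.16 to 0.10), and the miR-30 difference -0.05 (95% interval -0.18 to 0.09). Of its other 3 probe sets, only 231548_at was called in shBCL9, at -0.26 ± 0.08 (adjusted p = 0.0187). That call was lost without shGFP replicate 2 (-0.22, adjusted p = 0.0738), shBCL9 replicate 1 (-0.23, adjusted p = 0.0623) or shBCL9 replicate 3 (-0.23, adjusted p = 0.0637). It was also lost with the ACTB (-0.30, adjusted p = 0.271) or poly-A (-0.23, adjusted p = 0.23) covariate and with further quantile normalization (-0.18, adjusted p = 0.0604).

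Over all members in the miR-30 arm, 3 of 29 probe sets had an unadjusted p under 0.05 in limma (1 higher, 2 lower), against 17.6% of all probe sets. The 95% intervals of the 29 ran from -0.31 at the lowest to 0.41 at the highest bound. Non-overlapping arrays were seen at 5 of 29, against 22.9% of all. Among the brightest probe sets IRS1 differed most, by 0.11 (95% interval -0.05 to 0.27). Its closest genes over the 12 arrays were SNHG28 (r = 0.983), RNF138 (0.977) and AP1AR (0.973).

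The control cells of the arms differed at these genes, and this comparison shares its arrays with both treatment comparisons. Between cel-miR-67 and shGFP, 17 of the 29 probe sets were called, 9 higher and 8 lower, while 57% of all probe sets were (29.1% higher, 27.9% lower). The arrays did not overlap at 18, against 62.7% of all, and 7 differed by at least 2-fold, against 9.44%. INSR was higher in the transfected control by 1.27 to 1.68 at its 5 probe sets, and FOXO1 by 0.87 and 0.88. IGF1 was lower by 0.50 to 1.26 in size, and IRS2 by 0.31 and 0.48. IRS1 was lower at 238933_at (7.03 in shGFP and 6.03 in cel-miR-67) and higher at 204686_at (0.29). Neither was called with the ACTB covariate, where 204686_at was -0.18 (adjusted p = 0.794). PIK3IP1 was higher at 221756_at (0.35). FOXO3 was not called at its 4 probe sets. In some alternatives 2 of these were called lower. They were 204131_s_at with array weights (-0.16, adjusted p = 0.0338) or a trend and robust spread (adjusted p = 0.039), and 231548_at with further quantile normalization (-0.19, adjusted p = 0.0335) or array weights (-0.17, adjusted p = 0.0438). PIK3R1 was not called at its 3 probe sets. At 212240_s_at it was -0.14 and was called lower with further quantile normalization (-0.21, adjusted p = 0.0253) and with array weights (-0.18, adjusted p = 0.03). At 212239_at (0.26, adjusted p = 0.0632) it was called higher in 7 of 21 alternatives, among them without shGFP replicate 3 (0.34, adjusted p = 0.0251) or cel-miR-67 replicate 3 (0.33, adjusted p = 0.0358). IGF1R was called at 203627_at (-0.25), and 203628_at (-0.08) was called only without cel-miR-67 replicate 1 (-0.21, adjusted p = 0.0347). Its brightest probe set, 225330_at (-0.11), was called only with further quantile normalization (-0.17, adjusted p = 0.0486). Infection against transfection, sorting and any batch cannot be told apart here. The ACTB difference was 2.16 in cel-miR-67 and 1.30 in shGFP, and with it as a covariate 3 member probe sets were called. All 3 were of INSR (226450_at, 226212_s_at and 207851_s_at). FOXO1 was then 0.26 (202724_s_at, adjusted p = 0.661) and 0.64 (202723_s_at, adjusted p = 0.211). The IGF1 calls were lost (adjusted p 0.076 to 0.704), as were those of IRS2, with 209184_s_at at 0.03.

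**Figure D3:**
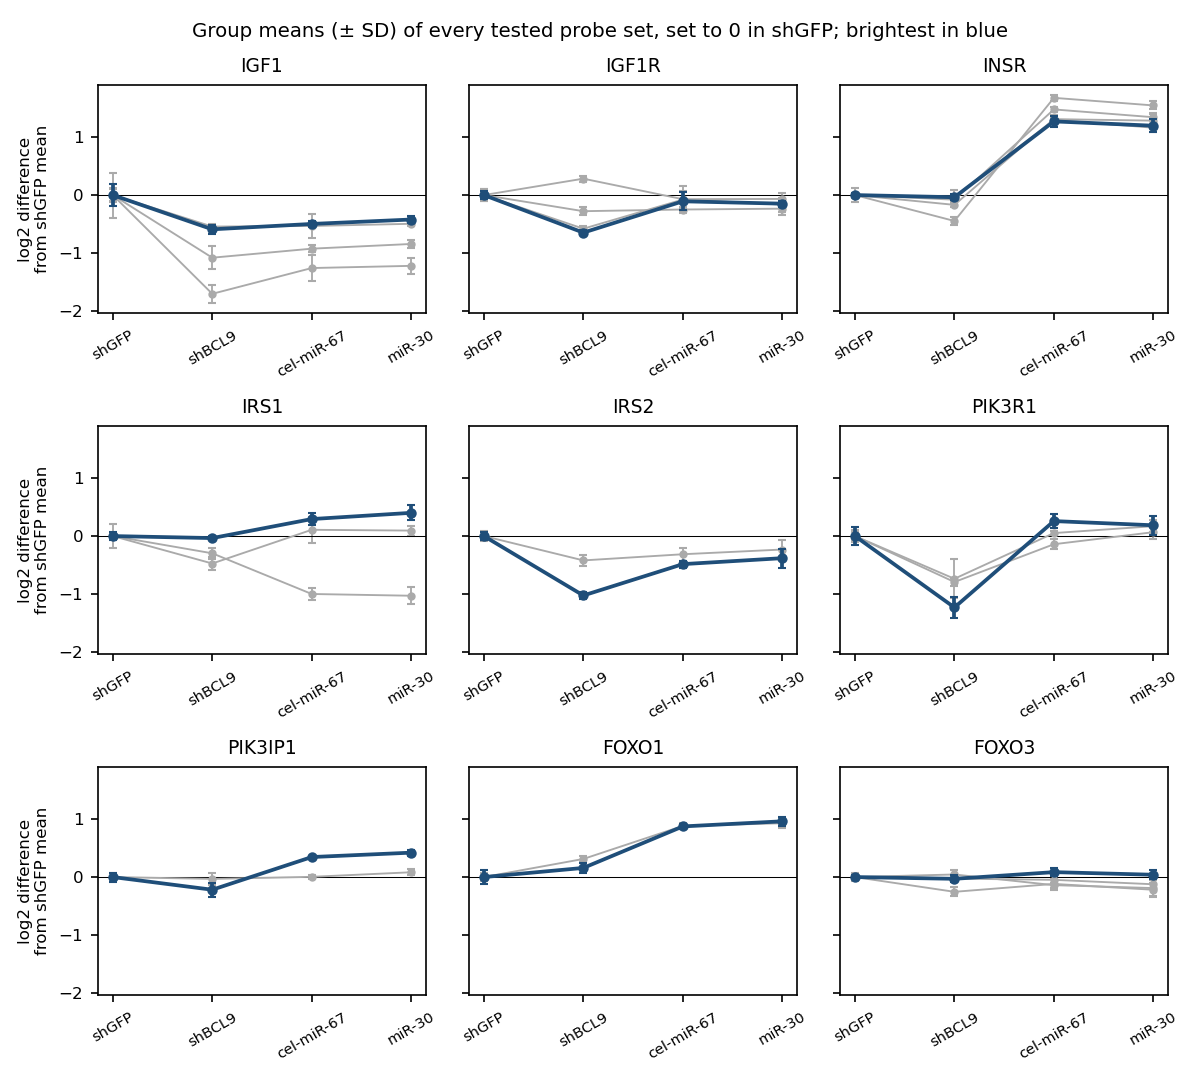
Group means (± SD, 3 arrays) of every tested probe set as log2 difference from its shGFP mean (y axis), by group (x axis) and gene, with the brightest probe set in blue. The IGF1 lines drop in all 3 other groups, the PIK3R1 lines are lowest in shBCL9, and the INSR lines step up by 1.27 to 1.68 in cel-miR-67. The IRS1 and IGF1R lines do not all run together.

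A few orders of the groups recurred among the members, as a description of the arrays. IGF1 at all 4 probe sets and IRS2 at both were highest in shGFP, above every array of the other groups. PIK3R1 at all 3 probe sets and IGF1R at 225330_at and 203628_at were lowest in shBCL9, below every other array, as was IRS1 at 242979_at. INSR at all 5 probe sets and FOXO1 at both were higher in all 6 transfected arrays than in all 6 infected ones. In bulk RNA of this kind, fewer cells that express a gene and less RNA per cell cannot be told apart.

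The other genes of the pathway were followed in 8 lists, each gene by its brightest probe set. Of the 116 genes tested, 53 were called in shBCL9, 17 higher and 36 lower. Of all 14729 genes tested, 38.9% were called (17.1% higher and 21.8% lower), with a median difference of 0.03. These shares, and those for miR-30 that follow, are the comparison for each list below. In the arrays labelled miR-30, 8 of the 116 were called, 4 higher and 4 lower, against 3.26% of all genes (1.76% higher, 1.5% lower), and 3 to 5 were when any 1 of the 6 arrays of that arm was left out.

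Among IGF ligands, receptors and binding proteins, 4 of 9 tested genes rose in shBCL9 and 1 fell, with a median of 0.13. IGFBP7, a secreted IGF-binding protein, rose by 0.43 (adjusted p = 0.000154), and IGF2R, which clears IGF2 from the surface, by 0.40 (adjusted p = 0.000238). INSRR (0.36) and IGFALS (0.26) also rose, from levels close to the filter level. IDE, a protease that degrades insulin, fell by 0.16 (adjusted p = 0.0386). The dimmer probe sets of IGFBP7 (0.28) and IDE (-0.04 and -0.02) were not called. With miR-30, 0 of the 9 were called by limma.

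Among receptor-proximal adaptors and inhibitors, 0 of 18 rose and 6 fell in shBCL9, with a median of -0.02. SOS1, an activator of RAS recruited by receptors, fell by 0.89 (adjusted p = 1.99e-06), the adaptor GAB1 by 0.60 (with 1 of 6 probe sets of opposite sign), SOS2 by 0.47 and the receptor phosphatase PTPRF by 0.44. Of PI3K subunits 0 of 10 rose and 2 fell, with a median of -0.04. These were the catalytic subunit PIK3CG (-0.68, adjusted p = 2.09e-06) and the class III kinase PIK3C3 (-0.26). In the miR-30 arm 0 of the 18 adaptors were called, and of the PI3K subunits PIK3R4, a partner of PIK3C3, was lower (-0.23, adjusted p = 0.0482).

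Of PIP3 and AKT phosphatases 2 of 8 rose and 3 fell in shBCL9, with a median of -0.05. PPP2CA, a catalytic subunit of phosphatase 2A, rose by 0.48, and PHLPP1, which dephosphorylates AKT, by 0.42. INPP5D, which removes a phosphate from PIP3, fell by 0.61, and PPP2R5A by 0.33 (its other probe set rose, by 0.20). Of AKT, SGK and mTOR kinases and regulators 3 of 24 rose and 5 fell, with a median of -0.10. TRIB2, a pseudokinase that binds AKT, fell by 1.20 (adjusted p = 3.14e-09) and at both probe sets. RICTOR, a core subunit of mTORC2, fell by 0.47, and TSC1, a brake on mTORC1, by 0.43, whereas EIF4EBP1, a repressor of translation controlled by mTORC1, rose by 0.49. In the miR-30 arm 0 of the 8 phosphatases were called, and DEPTOR, an inhibitor of mTOR, rose by 0.39 (adjusted p = 0.00178).

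Of FOXO family members and regulators 3 of 17 rose and 2 fell in shBCL9, all by 0.26 or less in size at the brightest probe set, with a median of 0.04. They include SKP2 (0.26, with 1 of 3 probe sets of opposite sign), YWHAB (-0.20), CREBBP (-0.21, with 2 of 4 of opposite sign) and YWHAE (0.19). With miR-30, 0 of the 17 were called.

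Of 37 listed genes that FOXO proteins are known to activate, 25 passed the filter and were tested. Of these, 14 fell and 5 rose in shBCL9, with a median of -0.31, against 21.8% lower and 17.1% higher over all genes tested. TP53INP1, a stress-response gene of autophagy and cell death, fell from 10.41 ± 0.07 to 8.60 ± 0.09 (SD, n = 3 each), by 1.81 (adjusted p = 3.58e-10), while its second, dimmer probe set read 0.18. KLF2, a transcription factor of lymphocyte quiescence, fell by 1.42 (adjusted p = 1.65e-09), with -0.19 and no call at its other probe set. CCNG2, a cyclin linked to cell cycle exit, fell by 0.99 (adjusted p = 1.59e-07), and MAP1LC3B, an autophagosome protein, by 0.59. TNFSF10 was among those that fell, with an shBCL9 mean of 4.21 under the filter level. With the ACTB covariate 15 of the 25 were called, with the poly-A signal 14, and with the 18S signal 0 by limma, 6 at an unadjusted p under 0.05. Over all 34402 probe sets, 5690, 5472 and 3 were called with these covariates.

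In the arrays labelled miR-30, 4 of these 25 were called by the brightest probe set, against 3.26% of all genes, with a median of 0.00052. With any 1 of the 6 arrays left out, 1 to 3 were called. CCNG2 rose by 0.46 (adjusted p = 0.00305) and KLF2 by 0.32 (adjusted p = 0.0103), while BNIP3, a mitophagy protein, fell by 0.35 and TXNIP, an inhibitor of glucose uptake, by 0.28. For KLF2 and CCNG2 the effects of the arms had opposite signs and differed by 1.74 and 1.45, and BNIP3, which rose by 0.22 in shBCL9, differed by -0.57. TXNIP fell in both arms. Over the list the difference of effects was called at 14 of 25, 12 higher in the miR-30 arm and 2 lower, against 23.2% of all genes (13.2% higher, 9.99% lower).

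**Figure D4:**
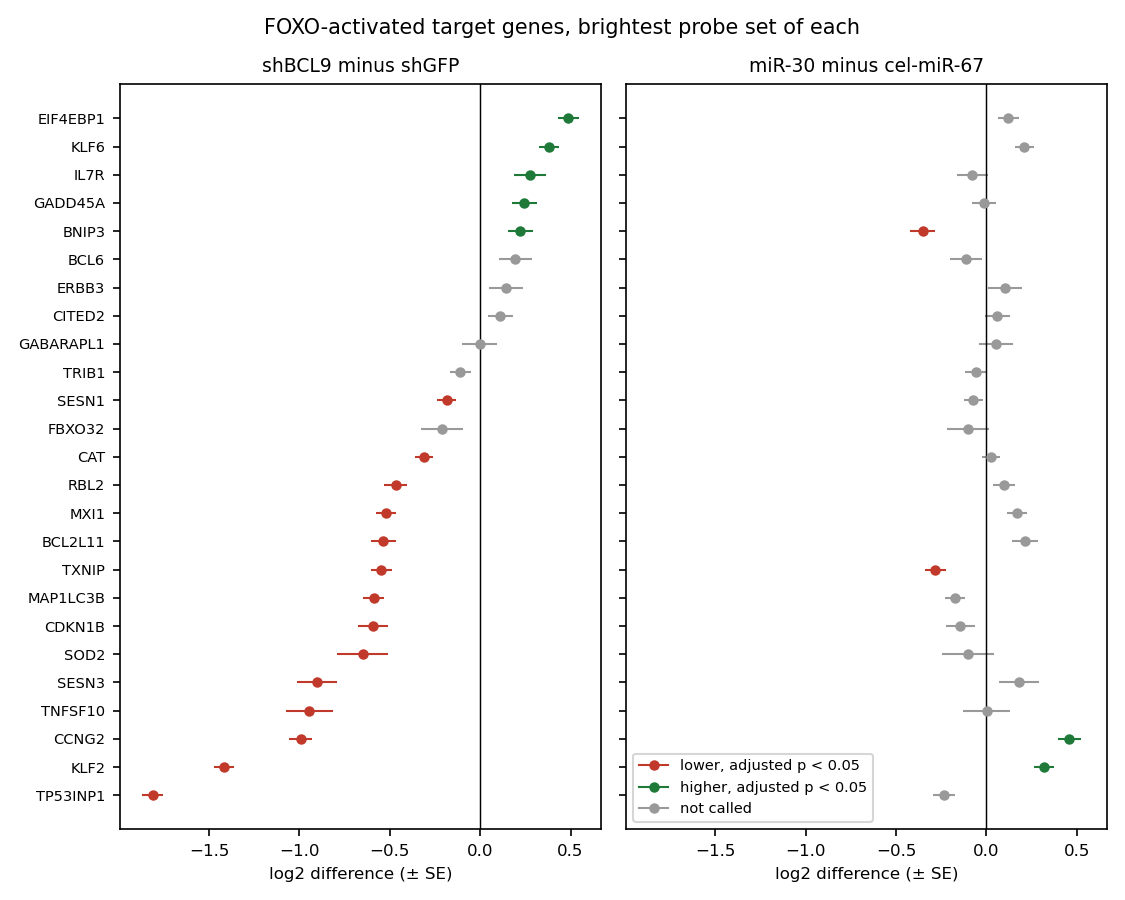
Log2 difference ± SE (x axis) of the brightest probe set of the 25 tested FOXO-activated genes (y axis, ordered by the left panel) for shBCL9 minus shGFP and for miR-30 minus cel-miR-67, with 3 arrays per group. On the left 14 genes are called lower and 5 higher, from -1.81 for TP53INP1 to 0.49 for EIF4EBP1. On the right 2 are called higher and 2 lower.

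Of 7 genes that FOXO proteins are known to repress, 1 rose and 3 fell in shBCL9, with a median of 0.04. CCND2, a D-type cyclin, fell by 4.60 (adjusted p = 1.33e-12), from 10.70 ± 0.03 to 6.10 ± 0.17 (SD, n = 3 each). Its dimmer probe sets gave -3.41, -1.31 and, without a call, -0.19 (adjusted p = 0.225). CCND1, another D-type cyclin, rose by 1.10 (adjusted p = 1.15e-07). JUNB fell by 0.35 and MYC by 0.34. With miR-30, PLK4, a kinase of centriole duplication, rose by 0.37 (adjusted p = 0.0143) and CCND1 fell by 0.28 (adjusted p = 0.0482). The second probe sets of PLK4 (0.27, adjusted p = 0.0936) and CCND1 (-0.29, adjusted p = 0.0571) were not called.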

How the data were processed

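Total RNA from H929 cells (Trizol) was biotin-labelled by a 3' in vitro transcription protocol and hybridised to arrays, per the labels' protocols. The 12 arrays (4 groups of 3, grouped by titles and treatments) are 1 table of log2 intensities that the authors deposited, with RMA and affy named, without versions, in what the labels list per the submitters' processing notes. The values were used as deposited; no array was a copy of another (17 to 90 equal values per pair). There is no read depth for arrays; precision is limited by how many there are.

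Names came from the platform annotation: 41097 had 1 symbol, 1801 several and 11777 were not listed. The gene IDs of 41043 were matched to RefSeq names (GRCh38.p14), which changed 0 symbols. Only probe sets with 1 symbol were named, so 3 shared by FOXO3 and FOXO3B were left out. The 62 control probe sets were left out of the tests, and probe sets above the 40th percentile of their array in at least 3 arrays, 34402, were tested. Group means were estimated in 1 model of the 12 arrays with limma 3.58.1 (lmFit and eBayes, R 4.3.3). All adjusted p-values are Benjamini-Hochberg values from limma over all probe sets tested, called under 0.05. Array controls were compared by exact permutation tests. Figures used Python 3.11.15 and matplotlib 3.10.9.

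The named genes are all members, BCL9, up to 4 called genes per list and treatment by adjusted p, and the 3 genes most like the member that changed most in each arm. TNFSF10, IDE, SDC1, CD38, BCL2L11 and KLF6 were named after their values were seen. The 8 lists are those the report names, and EIF4EBP1, TRIB1 and IGFBP1 are each in 2 of them. Marker lists covered stromal and epithelial, erythroid, myeloid, T and NK, B and plasma cells. The members and lists were chosen with earlier results of these data known, so their counts are descriptions. A simulation of the hairpin comparison over 34402 probe sets checked the model: it recovered 8 of 50 probe sets changed by 0.25, 39 of 50 by 0.5, 49 of 50 by 1 and 50 of 50 by 2, with 7 false calls. In the data 37.3% of probe sets were called in that comparison, far more than were changed in the simulation. The Benjamini-Hochberg cut-off thus differed, and these rates do not carry over to the data. Alternatives were other filters, probe set choices, scalings, spread models and thresholds, a replicate block, covariates for RNA quality, and leaving out each array.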

Additional observations from a re-analysis of the deposited data

Results flagged for a closer look

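Among the brightest probe sets of the 9 genes, 5 had an effect of miR-30 that differed from that of the hairpin in limma's test of the difference itself, with positive values meaning a higher effect in the miR-30 arm. The difference was 0.67 for IGF1 at 209542_x_at (adjusted p = 0.00165) and 0.61 for IGF1R at 225330_at (adjusted p = 0.00142). With the ACTB covariate the IGF1 call was lost (0.59, adjusted p = 0.161), with the 18S covariate its value was -0.0706, and the 18S covariate ended the call at each of the 5. It was 1.13 for IRS2 at 209185_s_at (adjusted p = 1.87e-05) and 1.16 for PIK3R1 at 212239_at (adjusted p = 0.000222). For PIK3IP1 at 221756_at it was 0.29 (adjusted p = 0.0456). That call was lost with its direction kept in 21 of 26 alternatives, 11 of them leaving out an array, as without shBCL9 replicate 3 (0.24, adjusted p = 0.0993) or shGFP replicate 1 (0.25, adjusted p = 0.0929). In 1 more, the 18S covariate, the direction turned (-0.15, adjusted p = 0.951). FOXO1 at 202723_s_at, not the brightest, differed by -0.27 (adjusted p = 0.0462). That call was lost with its direction kept in 16 of 24 alternatives, and in 1 more, the 18S covariate, the direction turned (0.0856, adjusted p = 0.971).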

How the results depend on the processing

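The 0 member calls in the miR-30 arm held under all alternatives (0 to 0 with an array left out), although over all probe sets the calls went from 917 to between 2 (at least 2-fold) and 2073 (trend and robust spread); by setting, they were 445 with no filter, 1516 with the 60th percentile, 451 with plain probe sets (IDs ending in _at without another letter), 330 to 542 with an array left out, 373 with only the arrays of the comparison, 1608 with array weights, 12 with the 18S covariate and 240 at 0.01. The 19 calls in shBCL9 became 16 to 20 with an array left out, 12 with plain probe sets (18 tested), 10 with the ACTB covariate, 0 with the 18S covariate and 4 at 2-fold or more; by gene, 5 of 9 were called by the brightest probe set and 7 by the mean of probe sets. Over all probe sets 12822 calls became 5690 with the ACTB covariate, 5472 with the poly-A covariate, 3 with the 18S covariate, 8086 at 0.01, 572 at 2-fold, 7622 with plain probe sets, 6121 by brightest probe set and 5881 by gene mean. For the difference of effects, 14 calls became 11 to 13 with an array left out, 5 by brightest probe set, 4 by gene mean, 6 with plain probe sets, 6 with the ACTB covariate, 0 with 18S (5 at an unadjusted p under 0.05 in limma), 9 at 0.01 and 5 at 2-fold (over all, 7448 became 3873, 3779, 4239, 3230, 21, 3958 and 591 from the brightest on, and 4882 with poly-A). Between the controls, 17 became 17 to 18, 6, 5, 8, 3 (ACTB) and 7 (2-fold) in the same order (over all, 19619 became 9043, 8588, 11706, 2638 and 3248 from the brightest on). The 53 pathway genes called in shBCL9 became 41 to 48 with an array left out, 32 (ACTB), 30 (poly-A), 0 (18S; 10 unadjusted) and 5 (2-fold), and the 19 FOXO-activated genes 17 to 19, 0 (18S) and 2 (2-fold). In the miR-30 arm the 8 pathway genes became 3 to 5, 5 with no filter, 13 with the 60th percentile, 4 with plain probe sets, 4 with only the arrays of the comparison, 19 with trend and robust, 4 (ACTB), 0 (18S; 17 unadjusted), 2 at 0.01 and 0 at 2-fold, and the 4 FOXO-activated genes 1 to 3, 2 with plain probe sets, 2 with only the arrays, 8 with trend and robust, 2 (ACTB), 0 (18S; 7 unadjusted), 1 at 0.01 and 0 at 2-fold. For the lists, the covariates, thresholds, spread models, sets of arrays and left-out arrays were chosen after seeing the data. Among member differences called as reported, the direction turned in 12 cases; differences that were not called also crossed 0, in 91 fits. With the ACTB covariate IGF1R 208441_at was -0.00071 in shBCL9, and between the controls IRS1 204686_at was -0.18 and IRS2 209184_s_at 0.0338. With the 18S covariate IGF1 was 0.29 (209542_x_at) and 0.27 (211577_s_at), IGF1R 208441_at -0.32, FOXO1 202723_s_at -0.11 and PIK3IP1 221756_at 0.31 in shBCL9, and the differences of effects were -0.0706 and -0.11 for those IGF1 probe sets, 0.0856 for FOXO1 202723_s_at and -0.15 for PIK3IP1 221756_at. The standard errors were wider with this covariate, whose values did not overlap between shBCL9 and shGFP; the cause of the other changes was not tested. With a replicate block 19, 0, 13 and 17 member probe sets were called, the lost call being PIK3IP1 221756_at in the difference of effects (adjusted p = 0.0543). Same-numbered arrays deviated together with correlations of 0.06 to 0.10 in the infected arm and 0.09 to 0.28 in the transfected arm, so the numbers were not taken as pairs, though 11 of 12 arrays correlated best with their own number. Each fit with an array left out assumes that the remaining 2 arrays of a group vary like the other groups. In both treatment comparisons, other scalings moved the share of higher calls by under 10 percentage points, but across 50%. In shBCL9 it was 43.6% of calls as reported, 50.3% with further quantile normalization and 35.0% with each array centred on its median. With miR-30 it was 54.3%, 62.1% and 45.8%. Which direction held most calls over all probe sets thus depended on the scaling.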
